A study of Homo sapiens with 8 samples.

Results

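In HL-60 cells, 42 genes listed at a normalised value of 3 or less in both DMSO libraries stood at 20 or more in both decitabine libraries. They were chosen on those values from 60240 genes in the table. In all, 53 genes passed both thresholds, and 11 of them were left out by name because they are PAGE, histone, metallothionein or LINC genes or were excluded one by one (GPAT2, TDRD9, TKTL1 and TUBA3D). HL-60 is an established human promyelocytic leukaemia line. Cells with the wild-type genotype label received decitabine and RG3039 together (the combination), decitabine alone, RG3039 alone, or the solvent DMSO. There were 2 libraries in each of the 4 groups, from wells seeded in duplicate. Decitabine was given at 100 nM on 3 consecutive days, RG3039 at 2 µM once at the start, and RNA was taken at 72 h. Libraries tagged the 3′ ends of polyadenylated RNA, so a gene's value counts tags near transcript ends. Nothing in the labels says that the duplicate wells came from separate cultures, so the errors here measure the spread between these samples.

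Decitabine, an analogue of deoxycytidine, enters DNA during replication and traps the DNA methyltransferases there, so that methylation is lost as cells divide. Dense methylation of CpG sites at a promoter is associated with a silent gene, and many tissue-restricted and germline genes are held silent in this way in leukaemia lines. RG3039 inhibits DcpS, the scavenger enzyme that hydrolyses the cap left over from 3′ to 5′ mRNA decay. The 2 libraries of RG3039 and the 2 of the combination took no part in choosing the genes. They show at what level the genes stood with RG3039 alone and whether decitabine raised them when RG3039 was present. A rise from DMSO to RG3039 is favoured by the choice of genes and was not tested.

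The stretches before the start of 6 of these genes are printed because the genes had different fates with the combination. They are the 200 bases that lie 250 to 51 bases before a start annotated by RefSeq on GRCh38.p14, 5′ to 3′ on the gene's strand, with each CpG in capitals. AKAP12 stood higher with the combination than with decitabine, NRCAM and COX7B2 had a level near that of decitabine, and CPNE8, STAB1 and SLC26A9 stood lower. For AKAP12 and NRCAM, which have 3 listed starts each, the start with the most CpG is shown.
AKAP12, chr6:151341456-151341655, plus strand: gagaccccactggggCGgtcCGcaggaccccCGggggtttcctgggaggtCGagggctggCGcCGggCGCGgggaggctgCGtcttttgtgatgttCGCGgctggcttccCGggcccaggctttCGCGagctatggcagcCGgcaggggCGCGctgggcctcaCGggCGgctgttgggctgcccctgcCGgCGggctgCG
NRCAM, chr7:108456487-108456686, minus strand: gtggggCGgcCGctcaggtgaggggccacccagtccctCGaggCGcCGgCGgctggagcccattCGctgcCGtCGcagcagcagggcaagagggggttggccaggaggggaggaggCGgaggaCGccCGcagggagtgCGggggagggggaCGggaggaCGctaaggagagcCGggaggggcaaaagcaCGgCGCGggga
COX7B2, chr4:46909296-46909495, minus strand: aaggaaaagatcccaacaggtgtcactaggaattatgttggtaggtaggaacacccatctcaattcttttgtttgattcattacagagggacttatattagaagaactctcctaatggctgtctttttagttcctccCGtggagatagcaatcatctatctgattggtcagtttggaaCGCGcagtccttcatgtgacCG
CPNE8, chr12:38905642-38905841, minus strand: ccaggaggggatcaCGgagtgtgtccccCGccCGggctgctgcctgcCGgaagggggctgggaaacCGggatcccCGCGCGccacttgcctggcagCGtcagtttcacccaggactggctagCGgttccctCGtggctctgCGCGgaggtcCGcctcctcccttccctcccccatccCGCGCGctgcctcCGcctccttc
STAB1, chr3:52495088-52495287, plus strand: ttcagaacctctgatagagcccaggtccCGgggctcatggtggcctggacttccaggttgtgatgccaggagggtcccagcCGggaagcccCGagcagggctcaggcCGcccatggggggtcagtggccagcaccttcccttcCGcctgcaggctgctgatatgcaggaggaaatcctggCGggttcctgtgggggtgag
SLC26A9, chr1:205943507-205943706, minus strand: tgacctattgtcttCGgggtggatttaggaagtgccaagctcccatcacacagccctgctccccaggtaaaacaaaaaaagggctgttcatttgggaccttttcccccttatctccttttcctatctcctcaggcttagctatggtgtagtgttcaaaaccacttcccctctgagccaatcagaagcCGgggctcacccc

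The AKAP12, NRCAM and CPNE8 windows held 22, 19 and 18 CpG, and 15.5%, 22.3% and 24.7% of the 35116 RefSeq promoters held as many or more in the same window. The STAB1, COX7B2 and SLC26A9 windows held 6, 4 and 2, and 56.3%, 65.2% and 80.6% of promoters held as many or more. The median promoter held 8. For the starts shown of these 6 picked genes, rich and poor windows occurred both among genes that stayed up and among those that did not. This rests on the choice of start, because the other listed starts held 12 and 7 CpG for AKAP12 and 0 and 1 for NRCAM. CPNE8 was the only printed gene that stood lower with a rich window. Among genes not printed that stood lower, the CHST15, PDIA2, PSORS1C2 and SH2D4B windows held 10, 8, 3 and 2 CpG. Among those that did not, NT5E, FAM47E-STBD1, OTP, RPL10L, VCX, BRSK1 and HECW2-AS1 held 23, 19, 18, 12, 8, 4 and 0. A link between CpG and level was not tested. Which start was used was not measured. The table of promoters held 17 of the 42 genes by symbol (40.5%), so no statement on the promoters of the whole set was possible. Methylation was not measured. The letters CCGGAAG, the core of an ETS factor site, occurred on either strand in the CPNE8 window and in 5.13% of all windows. The E-box CACGTG, the cyclic AMP response element TGACGTCA and the NRF1 motif were searched on both strands in the same way. None was found in the 6 windows, and 4.51%, 0.951% and 2.99% of all windows held them. CACGTG did occur in the window of another listed start of AKAP12, which is not printed.

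All 12 promyelocyte markers were listed well above 0 in every library, among them myeloperoxidase, with MPO between 69220 and 165600. Their levels were not alike in all groups. CTSG had 1285 and 1259 with the combination, 6653 and 8546 with decitabine, 999 and 1203 with RG3039 alone, and 4468 and 3016 in DMSO. CEBPE had 6514 and 7476, 4731 and 5676, 4075 and 5147, and 2368 and 2700 in the same order. Estimated depth lay between 20700000 and 40900000 reads per library. The threshold of 3 stood for 3.96 and 1.99 reads in the DMSO libraries, and that of 20 for 14.8 and 19.2 reads in the decitabine libraries. Among markers of other cell types, summed lymphoid levels ran from 1410 to 1967 with CD4, which monocytic cells also express, at 1157 to 1466 of that, and CD5 and MS4A1 were at 0 in all libraries. Some lymphoid markers differed between groups. CD3D had 61.3 and 104 with the combination, 17.5 and 40.4 with decitabine, 1.34 and 3.17 with RG3039 alone, and 6.03 and 1.51 in DMSO. CD3E had 41.6 and 94.1, 9.44 and 18.7, 4.03 and 10.4, and 3.03 and 1.51 in the same order. NKG7 went otherwise, at 31.6 and 45.6, 156 and 172.5, 24.2 and 39.8, and 99.9 and 134. Of 14 stromal and endothelial markers, 7 never exceeded 3 and COL3A1 and CDH5 were at 0. Their sum was 3225 and 3597 with the combination, 698 and 937 with decitabine, 1698 and 1961 with RG3039 alone, and 712 and 693 in DMSO, and PECAM1, which myeloid cells also express, made up 3085, 3460, 565, 821, 1633, 1875, 608 and 582 of it in the same order. Of 10 epithelial markers, 4 (KRT19, KRT5, KRT14 and CLDN4) were at 0 in all libraries, and the sum was 1713 and 1200 with the combination, 791 and 800 with decitabine, 815 and 580 with RG3039 alone, and 738 and 317 in DMSO. KRT18 and KRT8 made up most of that epithelial sum. KRT18 had 919 and 653 with the combination, 260 and 380 with decitabine, 294 and 235 with RG3039 alone, and 297 and 67.9 in DMSO. KRT8 had 745 and 496, 469.5 and 374, 509 and 324.5, and 389 and 236 in the same order. No other epithelial marker exceeded 40.45, the highest value of EPCAM, which was with decitabine. The part of these markers in the results was not tested.

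The level with decitabine, which chose the genes, was low for most of them. The mean of the 2 decitabine libraries was under 50 for 27 of the 42, between 50 and 100 for 11, and 100 or more for 4, with a median of 36.4 and a highest mean of 640 for COL14A1. In DMSO 19 genes were listed at 0 in both libraries. The 2 decitabine libraries were within 1.5-fold of each other for 30 genes, with a median of 1.19-fold and at most 2.50-fold, for NRCAM. Just inside the thresholds stood SH2D4B, an SH2 domain gene at 20.99 and 20.49 with decitabine, and the brain-expressed kinase gene BRSK1 at 22.8 and 21.3. AC103810.2 reached 2.62 and 2.62 in DMSO, and CHST15 reached 0.651 and 2.60. Just outside stood AC138123.1 (21.8 and 19.8) and PASD1 (37.8 and 19.8) with decitabine, and WASIR2 (2.27 and 3.02) and NKAPL (0.757 and 3.02) in DMSO.

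**Figure D1:**
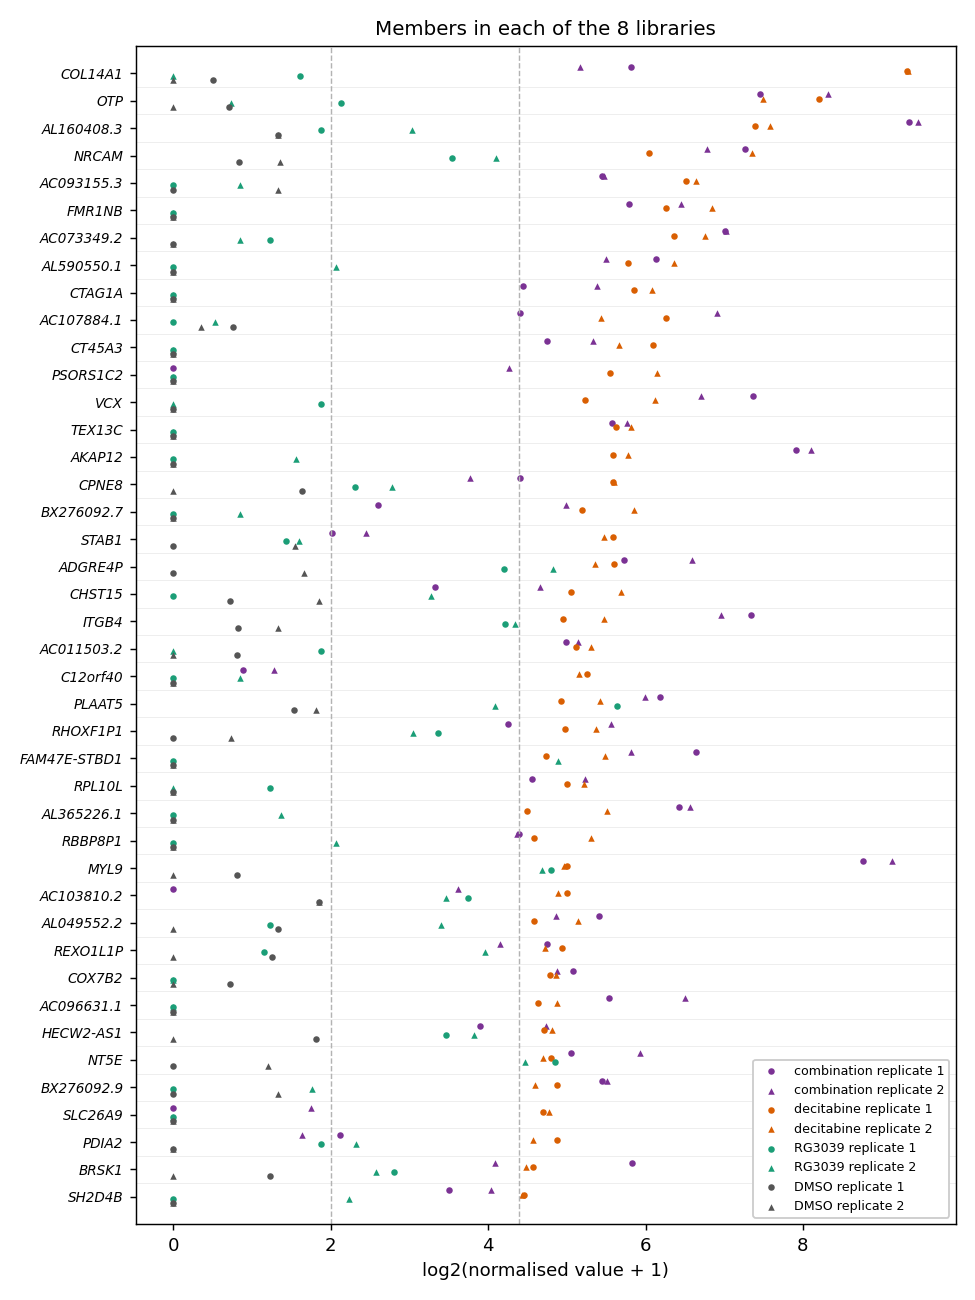
Each row is 1 of the 42 genes, ordered by the mean of its decitabine libraries, and each point is 1 library on a scale of log2(normalised value + 1). The dashed lines mark values of 3 and 20, which the DMSO points (at or below 3) and the decitabine points (at or above 20) respect by choice, while RG3039 points lie mostly to the left and combination points mostly to the right.

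Summed over the 42 genes, the signal was 3176 and 3657 with the combination, 2657 and 2922 with decitabine, 214 and 261 with RG3039 alone, and 21.05 and 21.7 in DMSO. Without COL14A1 the sums were 3121 and 3622, 2018 and 2280, 212 and 261, and 20.6 and 21.7 in the same order. The combination thus held as much of this signal as decitabine, with the weight on other genes, and RG3039 alone held a small part of it. Much of the combination sum lay in AL160408.3 (648 and 706, against 167 and 191 with decitabine), MYL9 (432 and 558, against 31.0 and 30.1) and AKAP12 (239 and 273, against 47.0 and 53.7). The sums without COL14A1 still hold these 3 genes, so they do not show a rise over most of the set. In bulk RNA, fewer cells with a gene on and less RNA per cell cannot be told apart. The median gene stood at 37.2 and 42.1 with the combination, 32.9 and 42.9 with decitabine, and 1.29 and 2.21 with RG3039. Genes at 20 or more in both combination libraries numbered 27 of 42 (64.3%), a further 7 reached 20 in 1 library, and 8 stayed under 20 in both. With RG3039 alone 21 of 42 (50.0%) stayed at 3 or less in both libraries, 8 of them at 0 in both, and only MYL9 and NT5E reached 20 in both.

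**Figure D2:**
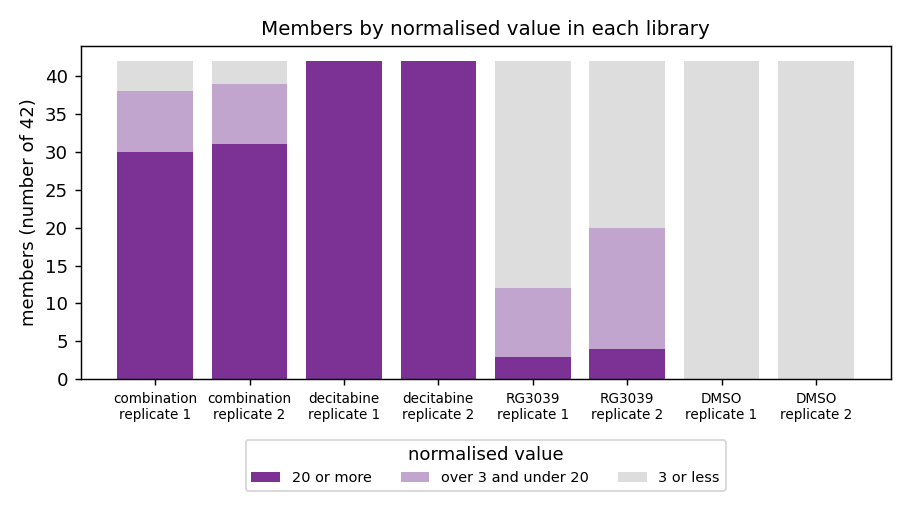
Each bar is 1 library and shows how many of the 42 genes had a normalised value of 20 or more, between 3 and 20, or 3 or less. The combination libraries held 30 and 31 genes at 20 or more, the RG3039 libraries 3 and 4, and the decitabine and DMSO bars are fixed by the choice of the genes.

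Decitabine raised many of these genes in cells that also received RG3039. The difference of the combination from RG3039 uses no library that chose the genes. By it, 20 of 42 were higher and 0 lower at an adjusted p under 0.05 (limma on log2(normalised value + 1), two-sided, adjusted over 19658 genes). The errors of that fit pool the spread of all 4 groups. The decitabine and DMSO libraries that chose the genes thus entered the errors, and so the count of 20. Among all tested genes 1.26% were called higher and 0.646% lower. Both combination libraries lay above both RG3039 libraries for 38 of the 42, against 25.8% of all tested genes, and below for 0. Some of the 38 differed only by very low values, as C12orf40 (0.842 and 1.42 against 0 and 0.806) and STAB1 (3.03 and 4.46 against 1.71 and 2.02). With RG3039 alone 21 of the 42 were at 3 or less in both libraries, which left them little or no room to be lower with the combination. Every gene passed the filter for testing, a mean of at least 5, through its decitabine libraries alone. The count of 20 was 9 when only the combination and RG3039 libraries were fitted. It was 1 without combination replicate 1, 1 without combination replicate 2, 7 without RG3039 replicate 1, 13 without RG3039 replicate 2, and 10 without either decitabine library in turn, where a lone library is taken to vary like the other groups. Only the uncharacterised lincRNA gene AL160408.3 (ENSG00000230628.1, chromosome 1, 234669523 to 234696153, minus strand) kept its call without each of the 8 libraries.

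By the same thresholds that defined the set, 16 of the 42 were also switched on between RG3039 and the combination, at 3 or less in both RG3039 libraries and 20 or more in both combination libraries. With the same names left out, 52 of the 19658 tested genes (0.265%) met those thresholds. The 16 shared genes were 38.1% of the decitabine list and 30.8% of the list from the combination, and the 2 lists share no library.

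**Figure D3:**
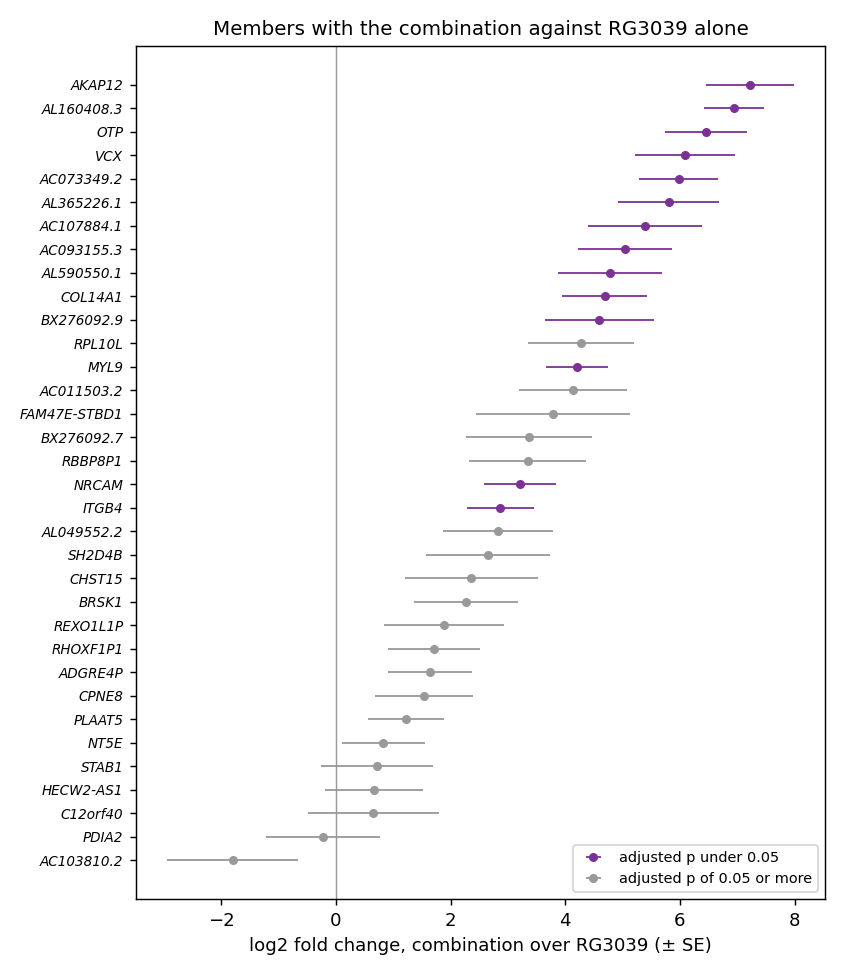
Points are log2 fold changes of the combination over RG3039 with the standard error from the model, for the 34 genes listed above 0 in at least 1 RG3039 library. Called genes run from 2.87 (ITGB4) to 7.22 (AKAP12), and the 2 genes left of 0, PDIA2 and AC103810.2, were not called.

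The developmental transcription factor gene OTP (ENSG00000171540.7, chromosome 5, 77628712 to 77639688 on GRCh38), a homeobox gene of hypothalamic neurons, had similar levels with and without RG3039 beside decitabine. It had 175 and 319 with the combination, 294 and 179 with decitabine, 3.39 and 0.670 with RG3039 alone, and 0.637 and 0 in DMSO. The combination and decitabine libraries overlapped, and both stood far above those of RG3039. Against RG3039 the combination was higher by 6.45 ± 0.71 on the log2 scale (SE, n = 2 and 2, limma adjusted p = 0.00358). The pseudogene RHOXF1P1, from the reproductive homeobox cluster on the X chromosome, had 18.1 and 46.2 with the combination, 30.6 and 40.3 with decitabine, 9.33 and 7.23 with RG3039 alone, and 0 and 0.667 in DMSO. Its difference from RG3039 of 1.70 ± 0.80 did not pass (limma adjusted p = 0.324). These were the only 2 of the 42 among 338 genes of the homeobox list, 106 of them tested.

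MYL9, AKAP12 and ITGB4 were among the genes picked because the combination stood above decitabine, and NRCAM was picked for its decitabine level. The decitabine libraries chose the genes at 20 or more, so differences from decitabine are given without a test. MYL9, the regulatory light chain of myosin II (ENSG00000101335.10, chromosome 20, 36541484 to 36551447), had 432 and 558 with the combination, 31.0 and 30.1 with decitabine, 26.9 and 24.7 with RG3039 alone, and 0.757 and 0 in DMSO. The RG3039 libraries lay just below those of decitabine, and the combination mean was 16.2 times the decitabine mean. Against RG3039 the log2 fold change was 4.20 ± 0.54 (limma adjusted p = 0.00688). AKAP12 (ENSG00000131016.17, chromosome 6, 151239999 to 151358557) encodes a scaffold that anchors protein kinases A and C. It had 239 and 273 with the combination, 47.0 and 53.7 with decitabine, 0 and 1.94 with RG3039 alone, and 0 and 0 in DMSO. It thus stayed near 0 with RG3039 alone and was 5.08 times the decitabine mean with the combination, at 7.22 ± 0.77 against RG3039 (limma adjusted p = 0.00299). ITGB4, the β4 subunit of a laminin-binding integrin (ENSG00000132470.14, chromosome 17, 75721328 to 75757818), had 161 and 124 with the combination, 29.96 and 43.4 with decitabine, 17.6 and 19.3 with RG3039 alone, and 0.764 and 1.52 in DMSO. The combination rose over RG3039 by 2.87 ± 0.58 (limma adjusted p = 0.0405). NRCAM, a neuronal adhesion molecule of the immunoglobulin family (ENSG00000091129.21, chromosome 7, 108147623 to 108456717), had 153 and 109 with the combination, 65.1 and 163 with decitabine, 10.7 and 16.1 with RG3039 alone, and 0.780 and 1.56 in DMSO. Its combination and decitabine libraries overlapped, and the rise over RG3039 was 3.21 ± 0.63 (limma adjusted p = 0.0371).

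The fibril-associated collagen gene COL14A1 (ENSG00000187955.12, chromosome 8, 120059780 to 120372036) did the opposite. It had 55.5 and 34.8 with the combination, 638 and 642 with decitabine, 2.04 and 0 with RG3039 alone, and 0.426 and 0 in DMSO. The highest gene of the set with decitabine alone thus stood at 7.05% of that level with the combination, a log2 difference of -3.83 ± 0.74 that was not tested. It still rose over RG3039 by 4.69 ± 0.74 (limma adjusted p = 0.0157). COL14A1 was the only one of the 42 among 184 genes of the collagen and extracellular matrix list, 79 of them tested.

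Set against decitabine alone, the 42 genes scattered in both directions. Both combination libraries lay above both decitabine libraries for 14 genes (33.3%, against 25% of all tested genes) and below them for 15 (35.7%, against 26.5%), and 13 overlapped. The median log2 difference was -0.21 over the 42 and -0.02 over all tested genes, and the quartiles over the 42 were -1.10 and 0.72. The combination mean was at least 2 times the decitabine mean for 8 genes and at most 0.5 times for 12. Across the 42 genes the combination and decitabine means had a Spearman correlation of 0.415, and a Pearson correlation of 0.397 on the scale of log2(mean + 1), a description over genes that share the same 4 libraries. The spread between decitabine libraries was narrowed by the choice of genes at 20 or more in both, so it is not compared with that of the combination. Of 39 genes above 0 in both combination libraries, 17 were within 1.5-fold, with a median of 1.56-fold and at most 6.07-fold, for BX276092.7 at 5.06 and 30.7.

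**Figure D4:**
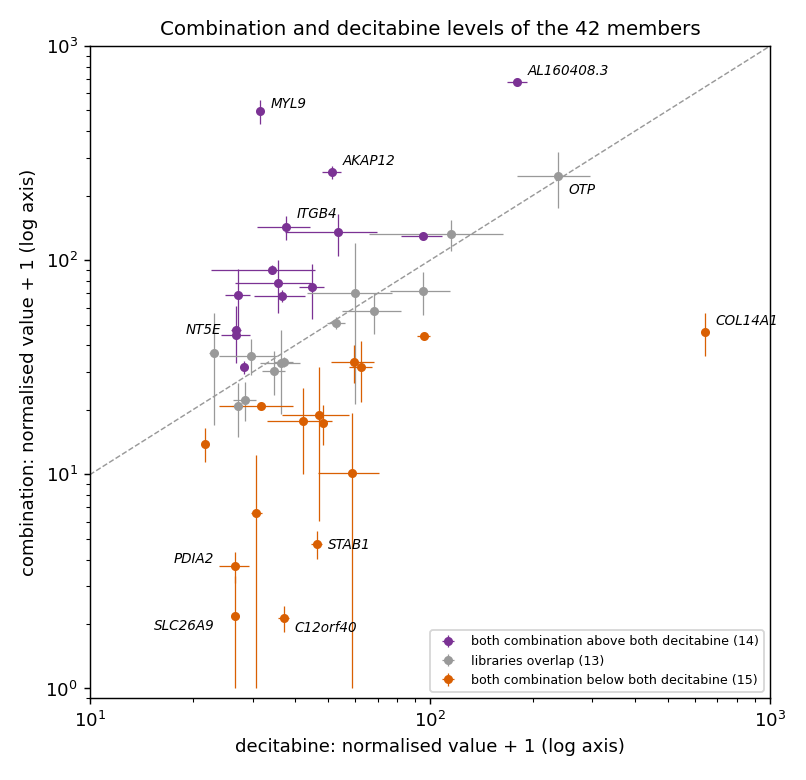
Each point is the mean of 1 gene, with the combination on the vertical and decitabine on the horizontal log axis (normalised value + 1), and bars span the 2 libraries. MYL9, AKAP12 and AL160408.3 lie well above the dashed line of equal values, OTP lies near it, and COL14A1, STAB1, C12orf40, SLC26A9 and PDIA2 lie below it.

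STAB1, C12orf40, SLC26A9 and PDIA2 stood under 5 in both combination libraries, and SLC26A9 and C12orf40 were the 2 of the 42 at 3 or less in both. STAB1, a scavenger receptor of macrophages and sinusoidal endothelium (ENSG00000010327.10, chromosome 3, 52495338 to 52524495), had 3.03 and 4.46 with the combination, 47.1 and 43.5 with decitabine, 1.71 and 2.02 with RG3039 alone, and 0 and 1.92 in DMSO. C12orf40, a gene of meiotic crossover formation that RefSeq lists as REDIC1, had 0.842 and 1.42 with the combination, 37.3 and 34.7 with decitabine, 0 and 0.806 with RG3039 alone, and 0 in both DMSO libraries. The anion transporter gene SLC26A9 had 0 and 2.36 with the combination, 24.95 and 26.4 with decitabine, and 0 in all libraries of RG3039 and DMSO. These 3 genes stood with the combination close to their level with RG3039 alone. PDIA2, a pancreatic protein disulfide isomerase gene, had 3.33 and 2.11 with the combination, 28.3 and 22.9 with decitabine, 2.69 and 3.98 with RG3039 alone, and 0 in both DMSO libraries. PSORS1C2, from the psoriasis susceptibility region of the major histocompatibility complex, had unlike combination libraries, at 0 and 18.3, against 45.8 and 69.6 with decitabine and 0 in the others. In none of these 5 did the combination pass against RG3039 (limma adjusted p between 0.507 and 0.944). C12orf40, SLC26A9 and PDIA2 were singled out after their values were seen. The genes were chosen for high decitabine values, so how far the combination lay below them is a description only.

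CPNE8, a calcium-dependent phospholipid-binding copine gene, lay between. It had 20.1 and 12.7 with the combination, 47.0 and 47.3 with decitabine, 3.97 and 5.87 with RG3039 alone, and 2.12 and 0 in DMSO, and the difference of the combination from RG3039 was 1.54 ± 0.85 (limma adjusted p = 0.412). CHST15, a sulfotransferase gene of chondroitin sulfate, had 9.06 and 24.2 with the combination, 32.1 and 50.4 with decitabine, 0 and 8.66 with RG3039 alone, and 0.651 and 2.60 in DMSO. Its difference from RG3039 was 2.36 ± 1.16 (limma adjusted p = 0.347).

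With RG3039 alone part of the set stood above the floor. Both RG3039 libraries exceeded 3 for 11 of the 42 genes and 1 of the 2 did so for another 10. Both lay above both DMSO libraries for 15 (35.7%, against 25.2% of all tested genes) and below for 0, which a choice of genes at 3 or less in DMSO favours, so no test is given. The RG3039 mean was a median of 3.24% of the decitabine mean. NT5E, which encodes the ectonucleotidase CD73 (ENSG00000135318.12, chromosome 6, 85449584 to 85495791), had 32.1 and 59.8 with the combination, 26.8 and 24.97 with decitabine, 27.8 and 21.2 with RG3039 alone, and 0 and 1.30 in DMSO. RG3039 and decitabine alone thus gave overlapping levels, and the combination differed from RG3039 by 0.83 ± 0.72 (limma adjusted p = 0.628). Of the 42 genes NT5E had the RG3039 mean closest to its decitabine mean, at 94.8%. The adhesion receptor pseudogene ADGRE4P had 52.0 and 95.2 with the combination, 47.6 and 40.04 with decitabine, 17.4 and 27.4 with RG3039 alone, and 0 and 2.17 in DMSO, with a difference from RG3039 of 1.65 ± 0.73 (limma adjusted p = 0.294). PLAAT5, a phospholipid acyltransferase gene, had 71.8 and 62.6, 29.4 and 41.8, 49.0 and 15.99, and 1.90 and 2.53 in the same order of groups, so 1 RG3039 library lay above both decitabine libraries.

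Of the 370 genes on a list of other germline and testis genes, 110 were tested and 4 were in the set, CTAG1A, CT45A3, VCX and TEX13C, all on the X chromosome. All 4 were at 20 or more in both combination libraries, at 3 or less in both RG3039 libraries, and higher with the combination than with RG3039 (limma adjusted p between 0.0119 and 0.0283). Against decitabine they differed, with VCX above it, CTAG1A and CT45A3 below it and TEX13C overlapping. VCX had 164 and 103 with the combination, 36.4 and 68.6 with decitabine, 2.69 and 0 with RG3039 alone, and 0 in DMSO. CTAG1A, which encodes the cancer-testis antigen NY-ESO-1, had 20.8 and 40.7 with the combination, 56.6 and 66.5 with decitabine, and 0 in the other 4 libraries. TEX13C had 46.6 and 53.4 with the combination and 48.5 and 55.1 with decitabine, and was at 0 in the other 4 libraries. CT45A3 had 25.8 and 39.3 with the combination and 67.4 and 49.9 with decitabine, and was at 0 in the others. Close copies make these levels uncertain. CTAG1B was listed at 0 in all libraries, while CTAG2 had 585 and 204 with the combination, 460 and 397 with decitabine, 355 and 242 with RG3039 alone, and 258 and 67.7 in DMSO. CT45A2 had 33.3 and 10.5 with the combination, 43.2 and 0 with decitabine, 37.6 and 10.4 with RG3039 alone, and 8.32 and 0 in DMSO. The relatives CTAG2 and CT45A2 were thus not silent outside decitabine. CT45A5 had 0 and 9.13 with the combination and 0 and 67.6 with decitabine, and VCX2 had 11.7 and 36.5 with the combination and 16.2 and 22.9 with decitabine, and both were at 0 in the other 4 libraries. FMR1NB, COX7B2 and RPL10L are not on that list and were singled out after their values were seen, as was C12orf40, described above, which stood near 0 with the combination. FMR1NB, another cancer-testis antigen gene on the X chromosome, had 54.3 and 86.8 with the combination, 75.3 and 114 with decitabine, and 0 in all libraries of RG3039 and DMSO (limma adjusted p = 0.00688 against RG3039). COX7B2, the testis form of a respiratory chain subunit, had 32.8 and 28.4 with the combination, 26.6 and 28.02 with decitabine, 0 with RG3039 alone, and 0.655 and 0 in DMSO (limma adjusted p = 0.0305). RPL10L, the testis retrogene of ribosomal protein RPL10, had 22.5 and 36.5 with the combination, 31.0 and 36.4 with decitabine, 1.34 and 0 with RG3039 alone, and 0 in DMSO, and missed the threshold (4.28 ± 0.93, limma adjusted p = 0.0526). Its parent RPL10 stood at 15730 to 22770, so reads that match both make RPL10L uncertain.

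Of the 40 genes placed in GENCODE 29, 9 were on the X chromosome (22.5%, against 3.13% of the 19222 placed tested genes) and 27 were protein-coding (67.5%, against 71.1%). Of the 9 X-linked genes, 6 were at 20 or more in both combination libraries, 7 were at 3 or less in both RG3039 libraries and 6 were called higher with the combination than with RG3039. Of the 31 autosomal genes these numbers were 19, 14 and 13. The neighbouring genes BX276092.7 and BX276092.9, 775 bases apart on opposite strands of the X chromosome, were the only 2 within 100 kb of each other. BX276092.9 had 42.7 and 44.5 with the combination, 28.5 and 23.3 with decitabine, 0 and 2.40 with RG3039 alone, and 0 and 1.52 in DMSO, and was called against RG3039 (4.60 ± 0.96, limma adjusted p = 0.0457). BX276092.7 was not (3.37 ± 1.10, limma adjusted p = 0.154).

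Of 13 genes annotated as non-coding or pseudogenes, 7 were at 20 or more in both combination libraries and 5 were called. AL160408.3 had 648 and 706 with the combination, 167 and 191 with decitabine, 2.69 and 7.16 with RG3039 alone, and 1.51 and 1.51 in DMSO. It was the highest of the 42 genes with the combination and rose over RG3039 by 6.95 ± 0.52 (limma adjusted p = 0.000379). The processed pseudogene AC073349.2 had 128 and 129 with the combination, 80.9 and 107 with decitabine, 1.34 and 0.796 with RG3039 alone, and 0 in DMSO (5.98 ± 0.68, limma adjusted p = 0.00423). The lincRNA gene AL365226.1 had 84.9 and 93.4 with the combination, 21.6 and 44.7 with decitabine, 0 and 1.59 with RG3039 alone, and 0 in DMSO (5.81 ± 0.88, limma adjusted p = 0.0138). The antisense gene AC107884.1 was called (5.39 ± 0.99, limma adjusted p = 0.0309) with unlike replicates, at 20.3 and 119 with the combination and 75.9 and 42.4 with decitabine. AL590550.1, which GENCODE 29 does not list, had 69.1 and 44.2 with the combination, 53.9 and 81.1 with decitabine, 0 and 3.18 with RG3039 alone, and 0 in DMSO (4.78 ± 0.91, limma adjusted p = 0.0336).

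Some genes overlap others, and whether reads were counted by strand is not stated in the labels or notes used here. AC093155.3 runs over HS2ST1 and LINC01140 on the same strand of chromosome 1 (86993009 to 87169204) and had 42.5 and 43.5 with the combination, 90.3 and 98.7 with decitabine, 0 and 0.796 with RG3039 alone, and 0 and 1.51 in DMSO (5.04 ± 0.82 over RG3039, limma adjusted p = 0.0184). HS2ST1, a heparan sulfate sulfotransferase gene, had 214 and 167, 812 and 748, 190 and 156, and 989 and 894 in the same order of groups, so its own level was low in all 4 libraries given RG3039. LINC01140 had 14.8 and 32.2, 26.1 and 21.7, 0 and 3.60, and 2.35 and 4.68. AC011503.2 lies within ZNF726 on the same strand and had 30.8 and 34.4 with the combination, 33.7 and 38.5 with decitabine, 2.69 and 0 with RG3039 alone, and 0.757 and 0 in DMSO, while ZNF726 had 80.9 and 57.2, 103 and 62.9, 25.3 and 22.8, and 29.4 and 14.4. FAM47E-STBD1, a readthrough of its 2 parent genes, had 99.0 and 55.5 with the combination, 25.6 and 43.7 with decitabine, 0 and 28.7 with RG3039 alone, and 0 in DMSO. Its parent STBD1 stood at 28.1 to 99.4 in all 8 libraries, so these levels may share reads. On the opposite strand STAB1 overlaps NT5DC2, C12orf40 overlaps SLC2A13, RBBP8P1 overlaps DOCK11, HECW2-AS1 overlaps HECW2, ITGB4 overlaps GALK1 and AL160408.3 overlaps AL160408.1. AC103810.2 overlaps LRRC37A3 on the opposite strand and AC103810.5 on the same strand. With the combination LRRC37A3 had 0.459 and 37.55, and AC103810.2 had 0 and 11.2 in the same libraries. AC103810.5 had 10.75 and 1.59 with RG3039 alone and 6.81 and 3.02 in DMSO.

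The remaining genes are AC096631.1, AL049552.2, REXO1L1P, RBBP8P1, HECW2-AS1, AC103810.2, SH2D4B and BRSK1. AC096631.1 was the only one of them called, at 45.4 and 89.6 with the combination, 23.8 and 28.4 with decitabine, and 0 in the other 4 libraries (limma adjusted p = 0.0137 against RG3039). The other 7 did not pass against RG3039 (limma adjusted p between 0.131 and 0.760). AC103810.2 had 0 and 11.2 with the combination, 31.0 and 28.6 with decitabine, 12.4 and 10.1 with RG3039 alone, and 2.62 in both DMSO libraries, and BRSK1 had 55.8 and 16.01 with the combination, 22.8 and 21.3 with decitabine, 5.98 and 4.95 with RG3039 alone, and 1.35 and 0 in DMSO. HECW2-AS1 was at 13.9 and 25.7 with the combination and at 10.1 and 13.2 with RG3039, so RG3039 alone gave levels near the lower combination library.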

How the data were processed

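The authors deposited 1 normalised signal value for each of 60240 genes in 8 libraries, with Ensembl identifiers and symbols. The submitters' processing notes list hg38, limma, DESeq2, featureCounts, STAR and Salmon 1.2.1, and say nothing of role or order. Values in genes with 1 annotated transcript fell on whole multiples of 1 step in each library for 97.46% to 98.11% of low values (tolerance 0.02), against 74.41% to 80.79% over all genes. Whole reads could thus be had for some genes but not nearly all, no count test was run, and total over step gave the estimated depth. The genes described and all lists were chosen with earlier results of these data known.

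Genes with a mean of at least 5 over the 8 libraries (19658) were fitted as log2(value + 1) with limma 3.58.1 in R 4.3.3, with a mean per group, contrasts, and eBayes with trend. The fit had 4 residual and 5.69 prior degrees of freedom and was checked on simulated data. The simulation drew normal noise on the log2 scale and set changes only in genes above a minimum mean level. It did not model the choice of genes or groups listed at 0, so it does not cover the 42 genes as chosen. P-values were adjusted by Benjamini-Hochberg over all tested genes. Only the combination against RG3039 was tested, because the other 2 groups chose the genes. Where a group is listed at 0, no fold change is given. Genes were named by a rule: the 12 highest with decitabine, the 6 furthest above and 6 furthest below decitabine with the combination (groups apart, higher mean at least 50), those at 20 or more in both RG3039 libraries, the 6 smallest p, the 6 highest with decitabine that were not called, the homeobox and matrix genes, and the 2 genes on each side of each threshold. It took 27 of the 42, and the others are named to account for all. Positions come from GENCODE 29 (GRCh38) and promoter sequences from RefSeq. Python 3.11.15, pandas 2.3.3, numpy 2.4.6 and matplotlib 3.10.9 were used.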

Additional observations from a re-analysis of the deposited data

Results flagged for a closer look

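CPNE8, AC103810.2 and PDIA2 moved in opposite directions with RG3039 according to whether decitabine was present, in every library. With decitabine present, CPNE8 was lower by 30.8 normalised units (combination minus decitabine, -30.8), AC103810.2 by 24.2 (-24.2) and PDIA2 by 22.9 (-22.9). Without decitabine, RG3039 minus DMSO was 3.86, 8.61 and 3.33 for CPNE8, AC103810.2 and PDIA2. The difference between the 2 effects was not tested, and the genes were chosen for low DMSO and high decitabine values. That choice favours a rise from DMSO and a fall from decitabine. With RG3039 alone the levels were low, at 3.97 and 5.87 for CPNE8 and 2.69 and 3.98 for PDIA2. In those libraries 1 read stood for 1.34 and 0.796. AC103810.2 had unlike combination libraries, at 0 and 11.2, and overlaps other genes.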

How the results depend on the processing

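For the combination against RG3039, 20 of the 42 genes and 374 of all genes were called. The numbers were 9 and 159 with only those 2 groups fitted, 15 and 213 with no filter on low values, and 17 and 132 without the mean-variance trend. With the replicate number as a block they were 20 and 644. Leaving out 1 library gave 1 to 20 of the 42 and 18 to 400 genes. The cause of these differences was not tested, except that leaving out a library leaves fewer samples. The log2 change of AC103810.2, not called, was -1.80, and -3.61 to 0.0073 without 1 library (0.0073 without combination replicate 1). None of the 42 was called lower under any of the alternatives run, which also covered TMM and quantile scaling, pseudocounts of 0.5 and 5, a mean of at least 10, and robust eBayes. A lower call had little or no room for the 21 genes at 3 or less in both RG3039 libraries. Of the 20 called genes, 9 kept the call in all of the 10 alternatives that leave out no single library. Over all tested genes, same-numbered libraries deviated together little or not at all (correlations of -0.0573 to 0.121), and the main fit did not pair them. Such a check over all genes cannot exclude a shared deviation in some of them. The block gave more calls over all genes (644 against 374), so whether the numbers pair samples is not known.

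The share at 20 or more in both combination libraries (64.3%) was 42.9% to 90.9% under the alternatives run for it. The share at 3 or less in both RG3039 libraries (50.0%) was 33.3% at a threshold of 1.5 and 81.8% under stricter membership (1 or less in DMSO and 40 or more with decitabine, 11 genes). That at 20 or more in both RG3039 libraries (4.76%) was 19.0% at a threshold of 10, 0.0% at 40 and under stricter membership, and 7.14% to 9.52% with 1 RG3039 library. Over genes not at 0 in a whole group, the median log2 difference of the combination from RG3039 (3.28) was 3.07 with quantile scaling, 3.58 and 2.31 with pseudocounts of 0.5 and 5, 5.69 under stricter membership, and 2.59 to 3.78 without 1 library. That of RG3039 from DMSO (1.74) was 2.16 and 0.82 with those pseudocounts, 0.55 under stricter membership, and 1.38 to 2.39 without 1 library. Count models were not run, and the split of promoters by coding status was not run because 40.5% of genes had a promoter entry. With 2 libraries a group and low levels, a gene that missed the threshold is not shown to be equal between groups.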
